A study of Mus musculus with 24 samples.

Results

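The genes described here encode lysosomal enzymes, lysosomal membrane proteins and proteins of autophagy, measured in C2C12 cells, an established line of mouse myoblasts. The members were 36 gene symbols. A gene counted where at least 1 probe set was assigned to it alone. Where it had several, the brightest on average over the 24 arrays stood for it. All 36 had such a probe set, out of 12393 genes on the array, and 34 of them were above the filter on low signal (a signal over the 40th percentile of its array, on 3 or more arrays), as were 8619 genes in all. The members that did not pass were Ctsk and Ctss, the cysteine cathepsins K and S, which were under that level on every array. By role, the list held 16 soluble hydrolases, 4 proteins that bind or activate the breakdown of lipids, 6 proteins of the lysosomal membrane and its proton pump, and 10 autophagy genes.

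The study crossed 2 siRNAs with 4 culture states and measured 3 arrays in each of the 8 groups. Cells received siRNA against IFT88 (IFT88KD), a protein that carries cargo within the primary cilium, or a negative control siRNA (control). Proliferating cells grew attached in DMEM with 20% FBS, quiescent cells were kept in suspension in the same medium, and replated cells were suspension cells collected 2 h after they were returned to a surface in that medium. Differentiating cells were attached, nearly confluent cells kept for 48 h in DMEM with 2% NHS. No group was left without siRNA, so every level is that of transfected cells of 1 line, and the labels do not say whether the 3 replicates came from separate cultures. The p-values therefore measure the spread between arrays, which may be technical.

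Lysosomes are acidic compartments in which hydrolases break down proteins, lipids, sugars and nucleic acids that arrive by endocytosis or by autophagy. In autophagy a membrane closes around cytoplasm and fuses with the lysosome: the Ulk1 kinase and the Becn1 lipid kinase complex start it, the Atg5, Atg7 and Atg12 conjugation system attaches Map1lc3b and Gabarapl1 to the growing membrane, and Sqstm1 brings cargo to them. Many lysosomal genes carry an E-box with set flanking bases near the start of transcription, the CLEAR element, which the factors TFEB and TFE3 bind when nutrient signalling is low. Cells that stop dividing rely on this system to renew their contents, and muscle stem cells are known to need autophagy to leave quiescence.

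Promoter stretches are printed for 6 members, chosen because they hold the E-box with a CLEAR-type flank and show how its number and place differ. The sequences were taken from the RefSeq windows of build GRCm38.p6, which reach from 250 bases before to 50 after an annotated start, and 30 of the 36 members had one. The windows of Atg12, Atp6v1h, Becn1, Ctsb, Ctsh and Npc1 were not used here. Each stretch is written 5′ to 3′ on the strand of the gene, and the capitals mark CACGTG. All 6 stretches lie before the annotated start of their gene. Ctsd, the aspartic protease cathepsin D, lies on the minus strand at chr7:142387900-142387945. Gaa, acid alpha-glucosidase, which degrades glycogen, lies on the plus strand at chr11:119267803-119267848. Gla, alpha-galactosidase A, lies on the minus strand at chrX:134601174-134601252. Glb1, the beta-galactosidase, lies on the plus strand at chr9:114401010-114401055. Lamp1, an abundant glycoprotein of the lysosomal membrane, lies on the plus strand at chr8:13159080-13159160. Mcoln1, a calcium channel of that membrane, lies on the plus strand at chr8:3500428-3500499.
Ctsd: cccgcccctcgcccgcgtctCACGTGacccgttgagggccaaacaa
Gaa: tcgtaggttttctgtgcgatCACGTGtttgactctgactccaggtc
Gla: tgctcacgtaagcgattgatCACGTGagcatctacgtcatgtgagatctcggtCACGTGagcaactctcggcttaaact
Glb1: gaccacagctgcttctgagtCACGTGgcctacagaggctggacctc
Lamp1: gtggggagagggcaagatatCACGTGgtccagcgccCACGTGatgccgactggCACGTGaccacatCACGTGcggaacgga
Mcoln1: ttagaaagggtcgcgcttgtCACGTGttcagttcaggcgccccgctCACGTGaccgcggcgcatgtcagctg

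Lamp1 held 4 copies of CACGTG in 81 bases, Gla and Mcoln1 held 2 each, and the stretches of Ctsd, Gaa and Glb1 held 1 each. Over the whole windows, CACGTG occurred in 12 of 30 members (40%) and in 8.09% of the 27025 genes with a window. TCACGTG, searched on both strands and holding the shorter motif, occurred in 10 of 30 members (33.3%) and in 4.29% of genes. TCACGTGA, which holds both shorter motifs, occurred in 5 of 30 members (16.7%) and in 1.12% of genes. The 10 members with the flanked motif were Atg7, Atp6v0d1, Ctsa, Ctsd, Gaa, Gla, Glb1, Lamp1, Lgmn and Mcoln1, and Atg5 and Ctsl had the core alone. The 27025 genes were not limited to those tested on the arrays. Ctsa and Lgmn each also had a window at the annotated edge of the gene, and it held no match. These are matches of letters in a window, listed as a description with no test.

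**Figure D1:**
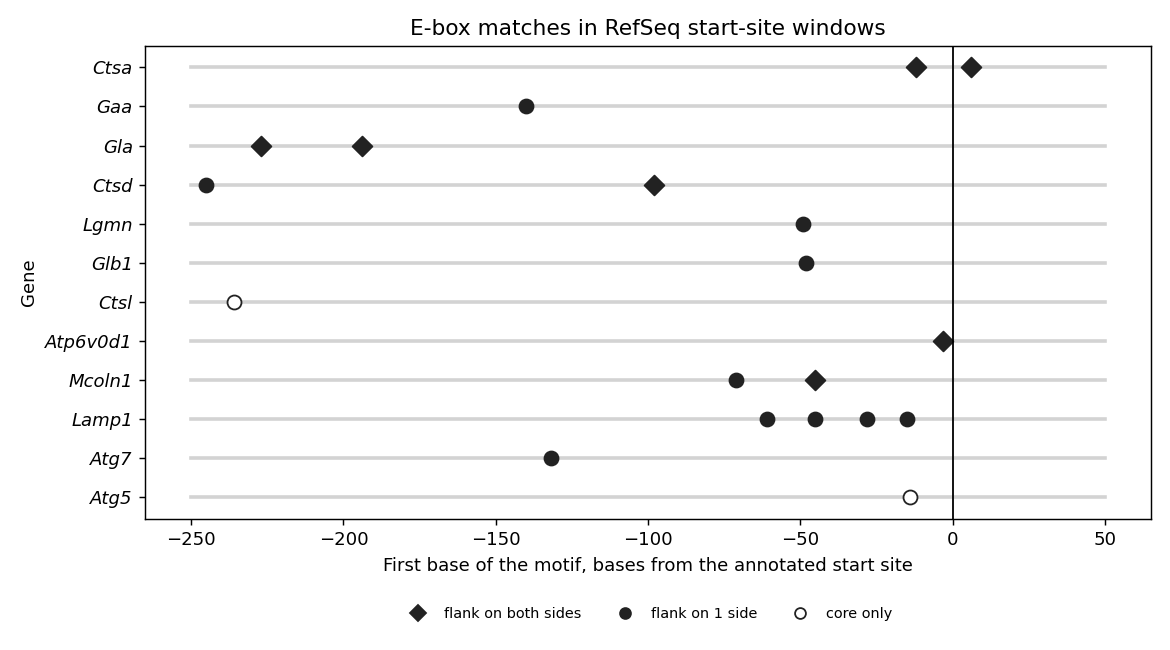
Position of each CACGTG match in the RefSeq windows of the 12 members that have one, in bases from the annotated start site (x axis), with 1 line per gene; diamonds have the flanking base on both sides, filled circles on 1 side and open circles on neither. The 4 matches of Lamp1 lie between -61 and -15, and those of Gla lie at -227 and -194.

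The labelled cell type was checked first. Of 6 myoblast markers, Myod1 and Des were above the filter on all arrays, at group means of 6.66 to 8.65 and 8.32 to 9.95 log2, and Pax7 was under it on all. Ift88 itself differed between IFT88KD and control by -0.52 log2 (SE 0.16, adjusted p = 0.295) in proliferating, -0.69 (SE 0.16, adjusted p = 0.0112) in quiescent, -0.59 (SE 0.16, adjusted p = 0.0525) in replated and -0.01 (SE 0.16, adjusted p = 0.999) in differentiating cells. In this fit, which did not use the replicate numbers, its transcript was lower past the threshold of 0.05 in 1 of the 4 states. The changes of -0.52 in proliferating and -0.59 in replated cells did not pass. In cells labelled IFT88KD after 48 h of differentiation the transcript was not detectably lower. The arrays had medians of 3.58 to 3.62 in control proliferating, 3.80 to 3.84 in control quiescent, 2.92 to 2.98 in control replated and 3.68 to 3.72 in control differentiating cells. Changes between states carry that difference of scale, so each is given beside the median over all genes and under other scalings. No 2 arrays held identical values.

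**Figure D2:**
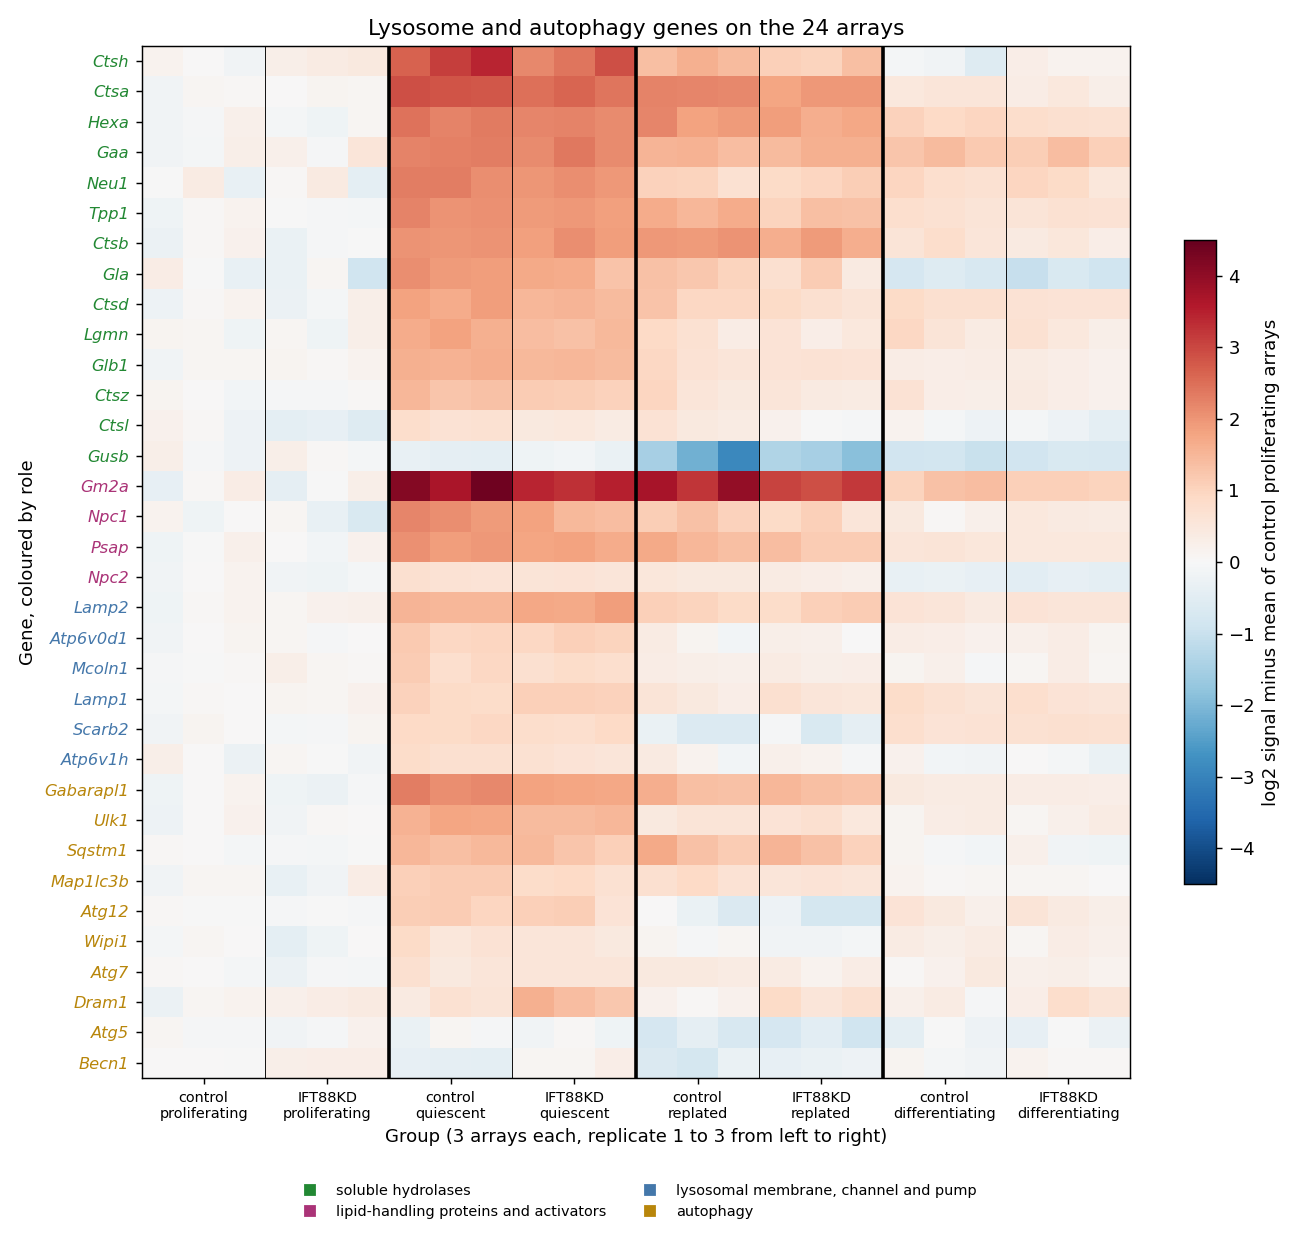
Colour shows the log2 signal of the 34 tested members (rows, grouped by role) on each of the 24 arrays (columns, 3 per group) minus the mean of the 3 control proliferating arrays. The quiescent and replated columns are red for most rows, the strongest red being that of Gm2a, and within a state the IFT88KD and control columns look alike for most genes.

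In control cells, 31 of the 34 tested members rose between proliferation and quiescence and 1 fell, with a median change of 1.47 log2 against 0.14 over all genes tested. Over all genes, 41.9% rose and 29.4% fell at the same threshold. The 3 quiescent arrays lay above the 3 proliferating arrays for 31 members, and for 43.6% of all genes. The 31 rises also held after quantile normalisation (all genes: 37.3% higher, 33.1% lower, median 0.04) and after centring each array on its median (31.8% higher, 38.8% lower, median -0.08). The falls numbered 2 after quantile normalisation and 3 after centring, in place of 1. Ranked within each array, which needs no common scale, 31 members stood at a higher percentile on every quiescent array and 2 at a lower one, against 39.0% and 34.9% of all genes. The median percentile of the members was 81.3 in proliferating and 91.9 in quiescent cells. The median of the members' own shifts was 6.71 percentile points, against 0.31 over all genes.

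Among the soluble hydrolases, 13 of 14 tested rose, with a median of 1.99 log2. Ctsa, cathepsin A, which protects beta-galactosidase and neuraminidase, measured 6.53, 6.79 and 6.75 log2 on the proliferating arrays and 9.60, 9.53 and 9.49 on the quiescent ones. Its quiescent arrays all lay far above the proliferating ones, with a mean of 9.54 ± 0.05 (SD, n = 3). The change was 2.85 (SE 0.09), or 7.21-fold, with an adjusted p of 4.8e-17. Ctsh, the aminopeptidase cathepsin H, measured 2.59, 2.47 and 2.28 in proliferating and 5.12, 5.55 and 5.89 in quiescent cells. These groups did not overlap, and the change was 3.07 (SE 0.18), or 8.40-fold, with an adjusted p of 1.8e-12. The proliferating signal of Ctsh was near the filter, at a median percentile of 42.1. Hexa, the alpha subunit of beta-hexosaminidase, which trims gangliosides, measured 7.44, 7.55 and 7.82 before and 10.05, 9.82 and 9.95 in quiescence. The rise of Hexa was 2.34 (SE 0.11, adjusted p = 4.4e-14), again with no overlap.

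Gaa, whose promoter stretch is printed above, measured 5.32, 5.39 and 5.76 in proliferating and 7.70, 7.74 and 7.81 in quiescent cells. All quiescent arrays were higher, by 2.26 (SE 0.14) on average or 4.80-fold, with an adjusted p of 2.9e-12. Its probe set is of the x_at kind, which can also bind related transcripts, and the other probe set of Gaa gave 2.47. The remaining hydrolases rose by 0.72 (Ctsl, a cysteine protease) to 2.23 (Neu1, the lysosomal neuraminidase), among them Tpp1, a tripeptidyl peptidase, by 2.10, Ctsb by 2.02, Gla by 1.97, Ctsd by 1.78, Lgmn, an asparaginyl protease, by 1.69, Glb1 by 1.60 and Ctsz by 1.35. Gusb, beta-glucuronidase, was the exception, with a change of -0.40 (SE 0.22, adjusted p = 0.107) that did not pass the test as deposited. It passed as lower after quantile normalisation (-0.45, adjusted p = 0.0425) and with centred arrays (-0.61, adjusted p = 0.0123). With the replicate number as a block the adjusted p was 0.0130.

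All 4 lipid-handling genes rose, with a median of 2.01 log2. Gm2a, the activator that presents GM2 ganglioside to beta-hexosaminidase, measured 4.52, 4.94 and 5.22 in proliferating cells and 9.01, 8.59 and 9.27 in quiescent cells. Every quiescent array was well above every proliferating one, and the change of 4.06 (SE 0.20), or 16.7-fold, had an adjusted p of 1.1e-13. The other probe set of Gm2a gave 3.95. Npc1 and Npc2, which pass cholesterol out of the lysosome, rose by 2.06 (SE 0.17) and 0.66 (SE 0.08). Psap, the precursor of the saposins that help degrade sphingolipids, rose by 1.96 (SE 0.11).

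The 6 genes of the membrane and proton pump all rose, with a median of 0.92 log2. Lamp2, a membrane glycoprotein needed for fusion and for chaperone-mediated autophagy, rose from 8.46 ± 0.18 to 9.95 ± 0.02 (SD, n = 3), by 1.49 (SE 0.10). Atp6v0d1 and Atp6v1h, subunits of the proton pump, rose by 1.03 and 0.76, Mcoln1 by 0.94, Lamp1 by 0.91, and Scarb2, the receptor that delivers glucocerebrosidase, by 0.88.

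Of the 10 autophagy genes, 8 rose and 1 fell, with a median of 0.88 log2. Gabarapl1, which is attached to autophagosome membranes, measured 7.09, 7.29 and 7.43 in proliferating and 9.57, 9.36 and 9.43 in quiescent cells. The groups were far apart, and the change was 2.18 (SE 0.10), or 4.55-fold, with an adjusted p of 2.8e-14. Ulk1 rose by 1.70 (SE 0.11), Sqstm1 by 1.44 (SE 0.14), Map1lc3b by 1.12 (SE 0.12) and Atg12 by 1.08 (SE 0.16). Smaller rises were those of Wipi1, which reads the lipid made by the Becn1 complex, by 0.68, Atg7 by 0.57 and Dram1, a lysosomal membrane protein induced by p53, by 0.56. Becn1 went the other way, from 7.23, 7.25 and 7.21 to 6.88, 6.82 and 6.79. All its quiescent arrays were lower, and it fell by 0.40 (SE 0.11, adjusted p = 0.0020). Atg5 changed by -0.08 (SE 0.14, adjusted p = 0.616), with overlapping arrays, and with centred arrays by -0.30 (adjusted p = 0.0496).

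**Figure D3:**
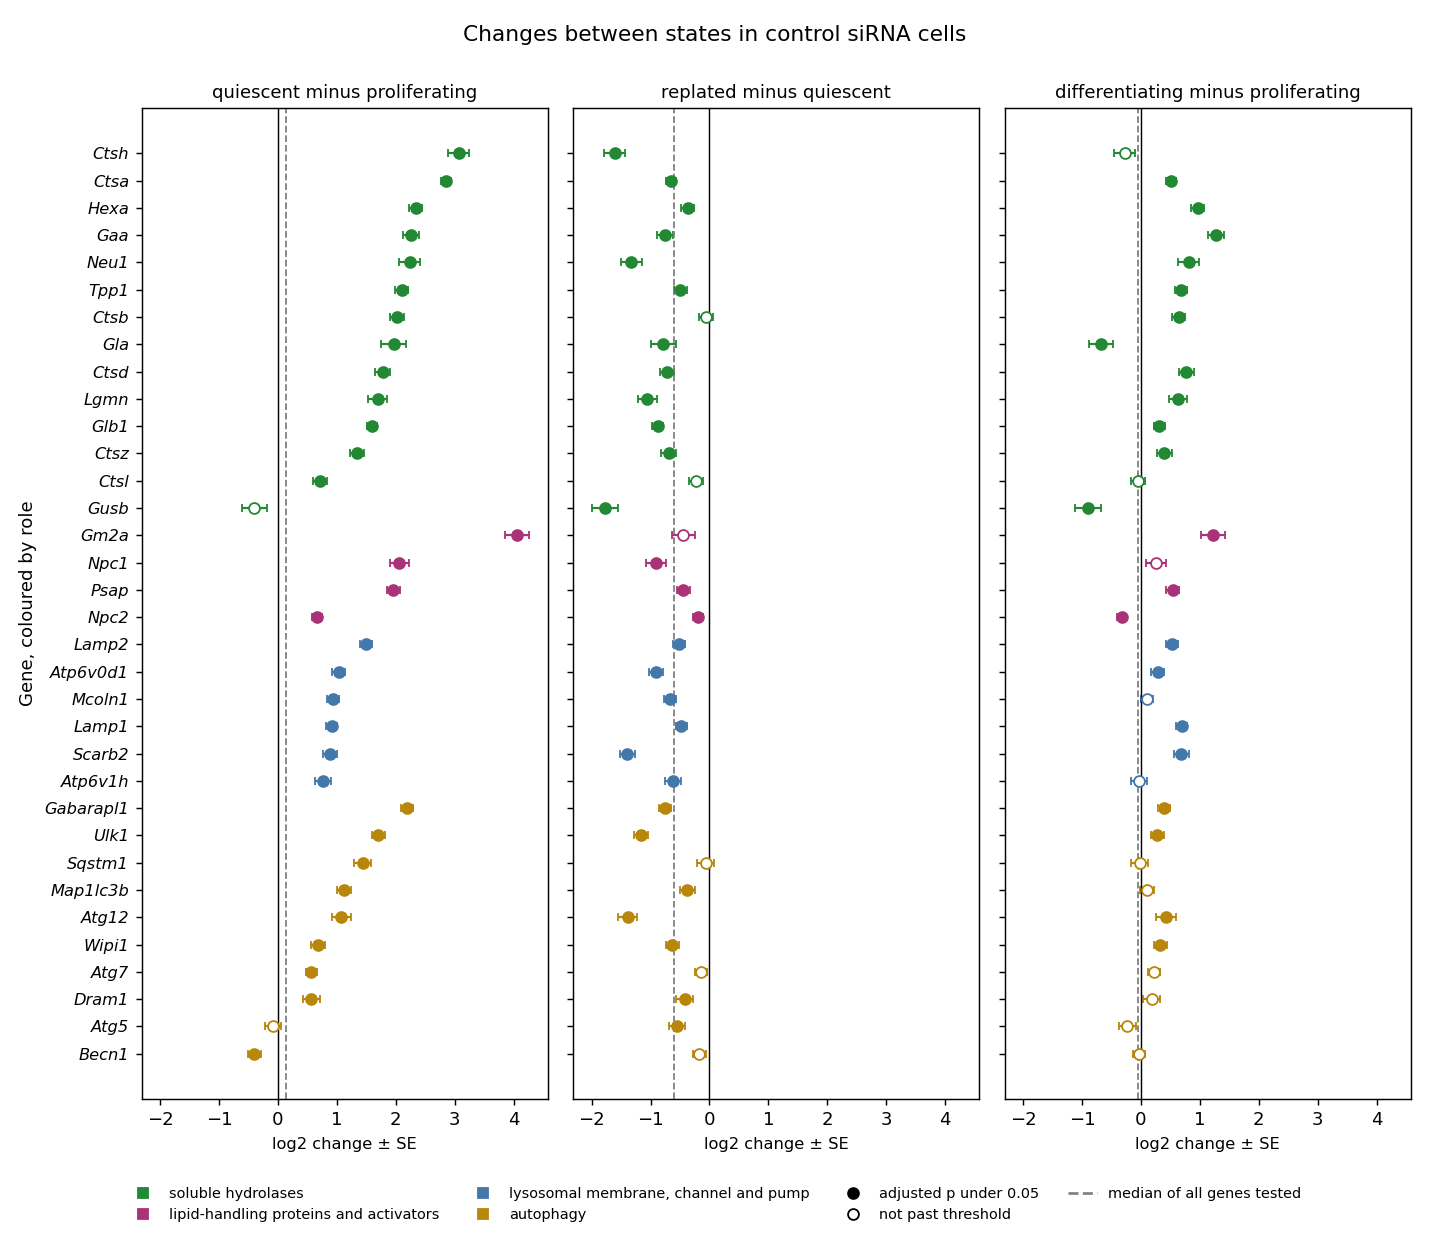
Each point is the log2 change of a member between control groups (x axis, ± SE from the limma fit, 3 arrays per group) for quiescent minus proliferating, replated minus quiescent and differentiating minus proliferating; filled points have an adjusted p under 0.05 and the dashed line is the median of all genes. In the left panel 31 of 34 members are filled and right of 0, whereas in the middle panel the members lie around a dashed line that is itself at -0.60.

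Of the 10 members with the flanked E-box 10 rose in this comparison, with a median of 1.64 log2. Of the 18 tested members that had a window and lacked it 16 rose, with a median of 1.39 over all 18. The ranges overlapped, being 0.57 to 2.85 with the motif and -0.40 to 4.06 without it.

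Lysosome and autophagy genes that are not members were counted from lists of the same pathway. Of 24 other hydrolases tested, 20 rose and 2 fell (median 1.10), led by Ctsf at 3.97, Naglu at 3.66 and Plbd2 at 2.09; Ctse fell by 3.56 and Ctsw by 2.40. Of 29 other membrane, sorting and pump genes, 18 rose and 1 fell (median 0.75), led by Ctns, the cystine transporter, at 2.06. Of 30 other autophagy genes, 26 rose and 2 fell (median 0.64), led by Bnip3, a mitophagy receptor induced by hypoxia, at 5.30. Of 17 regulators of lysosome genes, 15 rose and none fell (median 0.61), among them Ppargc1a at 2.74, Foxo3 at 2.61 and Tfeb at 0.58 (SE 0.11, adjusted p = 6.5e-05). With centred arrays 20, 18, 20 and 13 genes of these lists rose and 3, 1, 3 and none fell.

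Lysosomal genes are also high in macrophages, so 17 macrophage markers were read beside them. Their linear signals were summed, so the brightest markers weigh most. Their summed level was 5.92 to 6.12 log2 in control proliferating and 8.36 to 8.39 in control quiescent cells, and 4 of the 6 that could be tested rose, Cd14 by 3.80, Clec10a by 2.43 and Cd68 by 1.73 among them. In control quiescent cells 12 of the 17, including Ptprc, Adgre1, Lyz2, Itgam and the 3 C1q genes, were under the filter on all arrays. Of the myoblast markers, 4 of 5 tested fell in the same comparison, Cdh15 by 2.43 and Myod1 by 1.29. The markers of muscle differentiation rose in 5 of 6 (4 of 6 under either other scaling), with a median of 2.04. Their summed level differed widely among the control proliferating arrays, from 6.57 to 9.83 log2. These arrays are the baseline of both the quiescent and the differentiating comparison. Of 5 fibroblast markers, Pdgfra and Pi16 rose by 3.80 and 2.73, and 3 were under the filter on all control quiescent arrays. The part of these markers in the rise of the members was not tested. In such bulk RNA, a change in the number of cells of a type and a change in RNA per cell cannot be told apart.

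For replating, the direction of the list depended on the scale. As deposited, 28 of the 34 members fell and none rose within 2 h, with a median of -0.64 log2, but all genes had a median of -0.60, with 66.2% lower and 9.72% higher. After quantile normalisation 15 members fell and 1 rose (all genes: 36.3% lower, 27.5% higher, median -0.09). With arrays centred on their median 6 fell and 15 rose (all genes: 20.4% lower, 47.2% higher, median 0.26). By percentile within the array, 18 members stood lower and 4 higher on every replated array, against 39.2% and 29.2% of all genes, and the median member stood at the 87.7th percentile. The change had another sign under at least 1 of the other scalings for 24 of the 34 members.

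The 6 members that fell under all 3 scalings were Ctsh, Gusb, Neu1, Scarb2, Atg12 and Ulk1. Gusb measured 6.39, 6.32 and 6.31 log2 in quiescent and 5.26, 4.57 and 3.85 in replated control cells. Its replated arrays were all lower and spread widely (SD 0.70). It fell by 1.78 (SE 0.22, adjusted p = 2.5e-07), and its other probe set gave -0.93. Ctsh went from 5.12, 5.55 and 5.89 to 3.80, 4.06 and 3.89, a fall by 1.60 (SE 0.18, adjusted p = 6.7e-08) with no overlap. Scarb2 went from 8.35, 8.31 and 8.39 to 7.17, 6.85 and 6.86. All replated arrays of Scarb2 were lower, and it fell by 1.39 (SE 0.13, adjusted p = 2.8e-09), against -0.79 on its other probe set.

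Atg12, the ubiquitin-like protein joined to Atg5, went from 6.89, 6.91 and 6.76 to 5.80, 5.46 and 5.14. Its groups were separate, and it fell by 1.39 (SE 0.16, adjusted p = 1.4e-07), with -0.87 on its other probe set. Neu1 went from 5.51, 5.50 and 5.31 to 4.23, 4.20 and 3.91. It fell by 1.33 (SE 0.18, adjusted p = 9.4e-07), again without overlap. Ulk1 fell by 1.16 (SE 0.11, adjusted p = 7.5e-09). At the other end, Ctsb at -0.06, Sqstm1 at -0.06, Atg7 at -0.14, Becn1 at -0.17, Ctsl at -0.23 and Gm2a at -0.44 did not pass the test as deposited. The replicate numbers paired these control arrays, and with the number as a block Ctsl (adjusted p = 0.0087) and Gm2a (adjusted p = 0.0013) passed as well, for 30 lower in all. Gm2a measured 8.60, 8.10 and 8.84 after replating against 9.01, 8.59 and 9.27 in quiescence, so the groups overlapped, and its other probe set gave -1.49.

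By role, as deposited, 12 of 14 hydrolases (median -0.74), 3 of 4 lipid genes (-0.44), 6 of 6 membrane and pump genes (-0.64) and 7 of 10 autophagy genes (-0.48) fell, beside 66.2% of all genes. Outside the members, 20 of 24 hydrolases, 18 of 29 membrane, sorting and pump genes, 25 of 30 autophagy genes and 11 of 17 regulators fell as deposited. With centred arrays 7, 3, 10 and 4 of them fell and 6, 17, 11 and 7 rose, where 20.4% of all genes fell and 47.2% rose. The summed macrophage markers, as deposited, went from 8.36 to 8.39 log2 in quiescent to 7.30 to 7.45 in replated control cells. Of the 6 tested, 3 fell and none rose as deposited. After quantile normalisation 2 rose and 2 fell, and with centred arrays 3 rose and 1 fell. Of 6 markers of muscle differentiation, 2 fell as deposited (median -1.16) and none under either other scaling. The part of these marker lists was not tested. Tfeb fell by 0.93 as deposited and did not pass under either other scaling (-0.08 and -0.07). Pik3c3 and Pik3r4, the catalytic and scaffold subunits of the lipid kinase that works with Becn1, fell under all 3 scalings, by 2.53 and 2.20 as deposited and by 1.67 and 1.34 with centred arrays.

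Differentiation moved fewer members and by less. In control cells 20 of the 34 rose and 3 fell, with a median of 0.32 log2 against -0.06 over all genes, of which 24.6% rose and 30.3% fell. Quantile normalisation gave 20 higher and 2 lower (all genes: 26.8% and 27.8%), and centring gave 16 and 4 (20.2% and 37.4%). A block on the replicate number, which paired these arrays, gave 20 and 4 (27.7% and 35.1%), adding Ctsh (-0.27, adjusted p = 0.204 without and 0.0497 with it). By role, 10 hydrolases rose and 2 fell (median 0.57), 2 lipid genes rose and 1 fell (0.40), 4 of 6 membrane and pump genes rose (0.40), and 4 of 10 autophagy genes rose (0.20).

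Gaa led the rises, from 5.32, 5.39 and 5.76 to 6.73, 6.90 and 6.68 log2. All its differentiating arrays were higher, by 1.28 (SE 0.14, adjusted p = 9.1e-08). Gm2a went from 4.52, 4.94 and 5.22 to 5.89, 6.20 and 6.27. It rose by 1.22 (SE 0.20, adjusted p = 2.9e-05) with no overlap, but its other probe set gave 0.46. Hexa went from 7.44, 7.55 and 7.82 to 8.64, 8.49 and 8.58, all higher, a rise of 0.97 (SE 0.11, adjusted p = 2.5e-07). Neu1 went from 3.19, 3.57 and 2.86 to 4.18, 3.98 and 3.90, and its change of 0.81 (SE 0.18) had an adjusted p of 6.6e-04. Ctsd went from 7.54, 7.81 and 7.92 to 8.62, 8.48 and 8.48, and its change of 0.77 (SE 0.13) had an adjusted p of 3.1e-05. Neither Neu1 nor Ctsd overlapped between the groups.

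The 3 that fell with differentiation were Gusb, Gla and Npc2. Gusb went from 7.02, 6.69 and 6.51 to 5.88, 5.90 and 5.72, lower on all arrays, by 0.90 (SE 0.22, adjusted p = 0.0015). Gla went from 3.95, 3.59 and 3.27 to 2.87, 3.02 and 2.90. It fell by 0.68 (SE 0.21, adjusted p = 0.0095), and without control proliferating replicate 1 the adjusted p was 0.0691. Npc2 went from 9.78, 9.96 and 10.10 to 9.63, 9.66 and 9.57. All its arrays were lower, by a small 0.33 (SE 0.08, adjusted p = 0.0019), which did not pass after quantile normalisation (adjusted p = 0.0601). Ctsh, Ctsl, Sqstm1 and Becn1 were among the 11 that did not pass in either direction.

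Among non-members, 13 of 24 hydrolases rose and 4 fell with differentiation, and Ctsc, the dipeptidyl peptidase cathepsin C, rose by 3.21. Of the 30 other autophagy genes, 12 rose and 2 fell, led by Map1lc3a at 2.00, and 11 of 17 regulators rose and none fell. Tfeb was among those regulators at 0.34, but did not pass after quantile normalisation (adjusted p = 0.0898) or centring (0.0767). All 6 muscle differentiation markers rose in the same cells, with a median of 5.35 log2, and the summed macrophage markers lay at 5.77 to 5.84 log2 in control differentiating cells against 5.92 to 6.12 in proliferating ones. Of the 17 macrophage markers, 16 were under the filter on all control differentiating arrays and 13 on all control proliferating arrays.

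Whether IFT88 siRNA altered these genes was asked within each state, and the quiescent state gave the most calls. There 4 of 34 members passed, 2 higher and 2 lower, against 5.24% of all genes (2.94% higher, 2.31% lower). The median member changed by -0.18 log2 against -0.01 over all genes. A change below 0 was found for 29 of 34 members and for 53.0% of all genes. All 3 IFT88KD arrays were below all 3 control arrays for 17 members (13.6% of all genes) and above them for 4 (11.2%). The replicate numbers paired the arrays of the 2 siRNAs, and with the number as a block 11 members passed, 2 higher and 9 lower, against 13.8% of all genes (6.83% higher, 6.94% lower).

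**Figure D4:**
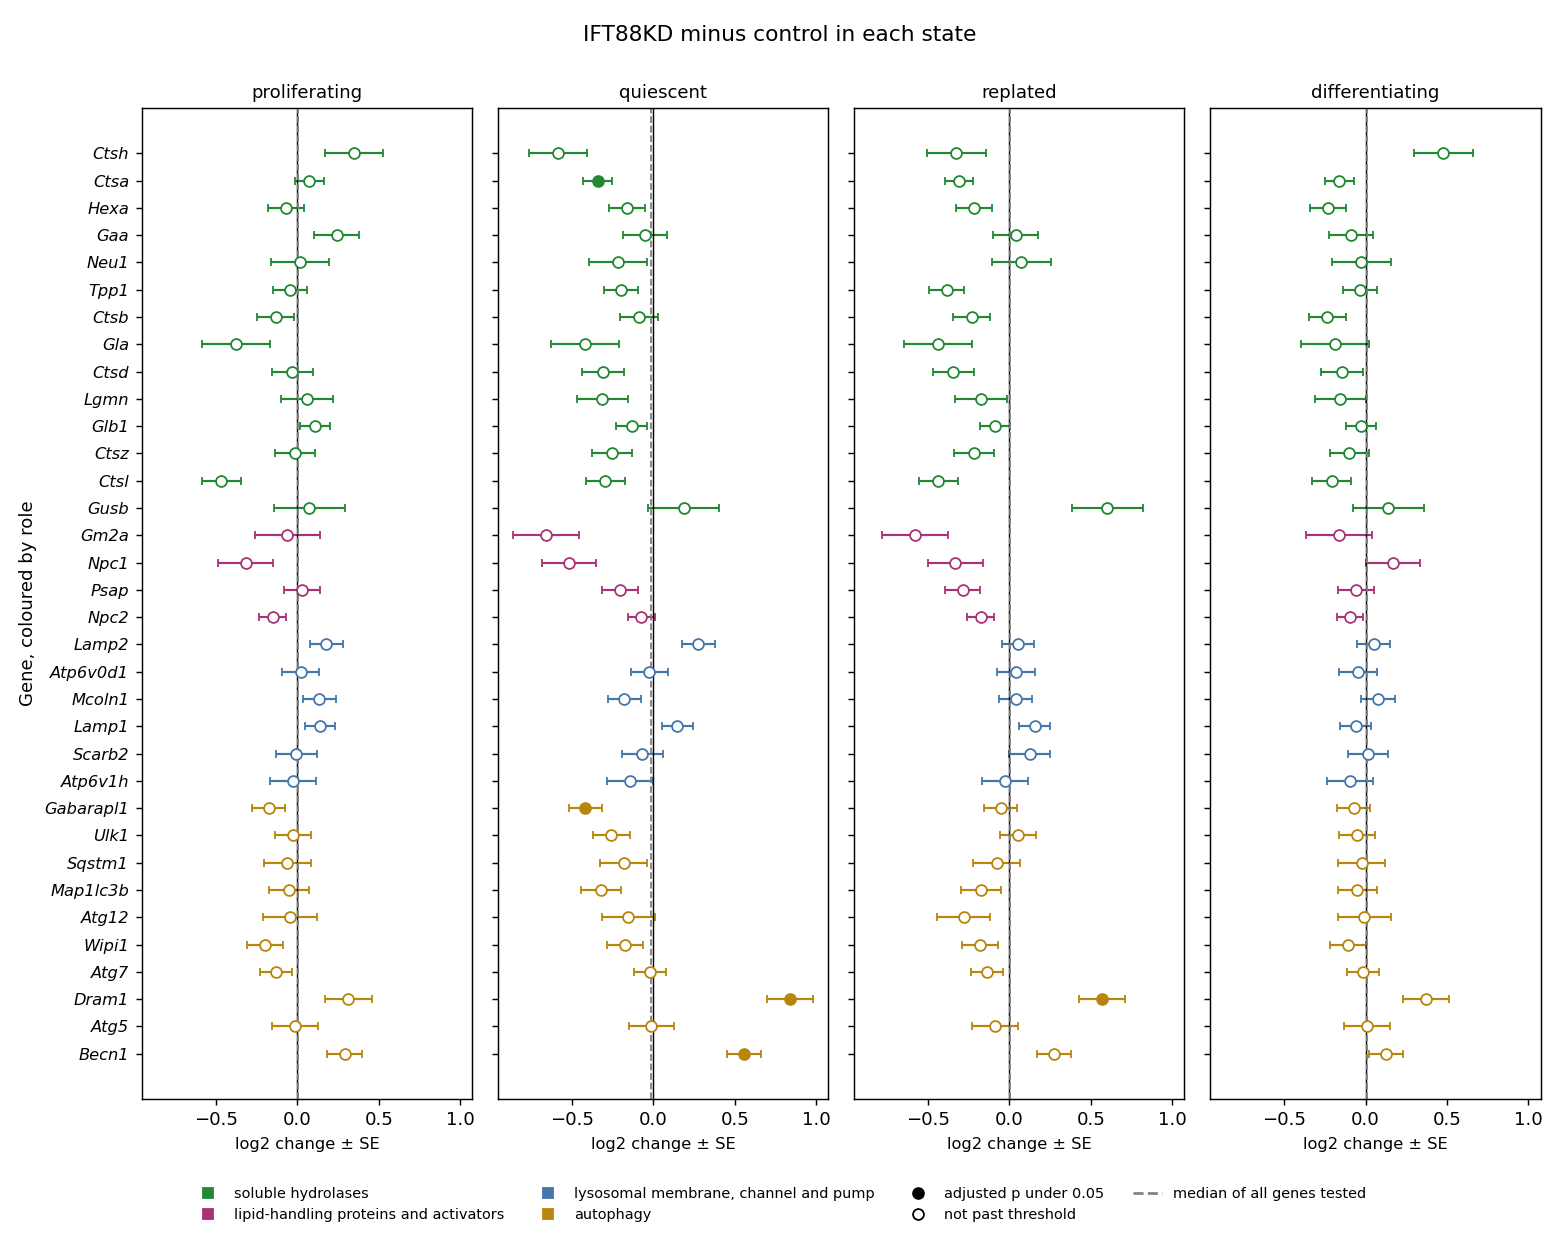
Each point is the log2 change of a member between IFT88KD and control (x axis, ± SE from the limma fit without a block, 3 arrays per group) in each of the 4 states; filled points have an adjusted p under 0.05 and the dashed line is the median of all genes. Filled points are Dram1, Becn1, Gabarapl1 and Ctsa in quiescent cells and Dram1 in replated cells.

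Both members that were higher in quiescent IFT88KD cells were autophagy genes. Dram1 measured 4.62, 4.91 and 4.79 log2 in control and 5.82, 5.59 and 5.44 in IFT88KD quiescent cells. The groups did not overlap, and the change was 0.84 (SE 0.14), or 1.79-fold, with an adjusted p of 6.5e-04 (3.8e-04 with the block). Becn1 measured 6.88, 6.82 and 6.79 in control and 7.30, 7.33 and 7.53 in IFT88KD cells. All IFT88KD arrays were higher, by 0.56 (SE 0.11), or 1.47-fold, with an adjusted p of 0.0021 (8.9e-04 with the block). The other probe set of Becn1 above the filter gave 0.36.

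The 2 that were lower were Gabarapl1 and Ctsa. Gabarapl1 measured 9.57, 9.36 and 9.43 in control and 9.09, 9.03 and 8.99 in IFT88KD quiescent cells. It was lower on all arrays, by -0.42 (SE 0.10, 1.34-fold lower), with an adjusted p of 0.0147, which was 0.0598 when the probe sets of a gene were averaged, 0.0623 without IFT88KD quiescent replicate 3 and 0.0719 without control quiescent replicate 1. With the block the adjusted p of Gabarapl1 was 0.0015, and its other probe set gave -0.40. Ctsa measured 9.60, 9.53 and 9.49 in control and 9.17, 9.31 and 9.11 in IFT88KD cells. These, too, were separate, with a change of -0.34 (SE 0.09, 1.27-fold lower) and an adjusted p of 0.0229 (0.0105 with the block). That of Ctsa was 0.0857 and 0.112 without IFT88KD quiescent replicate 1 or 3, and 0.0815 and 0.0705 without control quiescent replicate 1 or 2.

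The lipid and hydrolase members lay mostly below 0 in quiescent cells: 13 of 14 hydrolases (median -0.24) and 4 of 4 lipid genes (median -0.36) had a negative change. The membrane and pump genes had a median of -0.05 and the autophagy genes -0.16. Gm2a measured 9.01, 8.59 and 9.27 in control and 8.32, 8.20 and 8.38 in IFT88KD cells. All 3 IFT88KD arrays were lower, but the change of -0.66 (SE 0.20) did not pass (adjusted p = 0.0616), and with the block it did (adjusted p = 0.0015). Leaving out the second control quiescent array gave Gm2a -0.85 and an adjusted p of 0.0296. Its other probe set gave -0.69. Ctsh measured 5.12, 5.55 and 5.89 in control and 4.60, 4.87 and 5.34 in IFT88KD cells. The ranges overlapped, the change was -0.58 (SE 0.18, adjusted p = 0.0640), and with the block, which compares arrays of 1 number, the adjusted p was 0.0037. Ctsh also passed when the third IFT88KD quiescent array (adjusted p = 0.0154) or the first control one (0.0146) was left out.

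The others that passed with the block alone were Npc1 (-0.52, adjusted p = 0.0828 without and 0.0074 with it), Ctsl (-0.30, 0.193 and 0.0130), Ctsd (-0.31, 0.202 and 0.0186), Map1lc3b (-0.32, 0.154 and 0.0336) and Ulk1 (-0.26, 0.234 and 0.0487). Lamp2 at 0.28 (adjusted p = 0.134) and Lamp1 at 0.15 (adjusted p = 0.480) lay above 0 and did not pass. The 10 members with the flanked E-box had a median of -0.16 and the 18 without it -0.19.

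**Figure D5:**
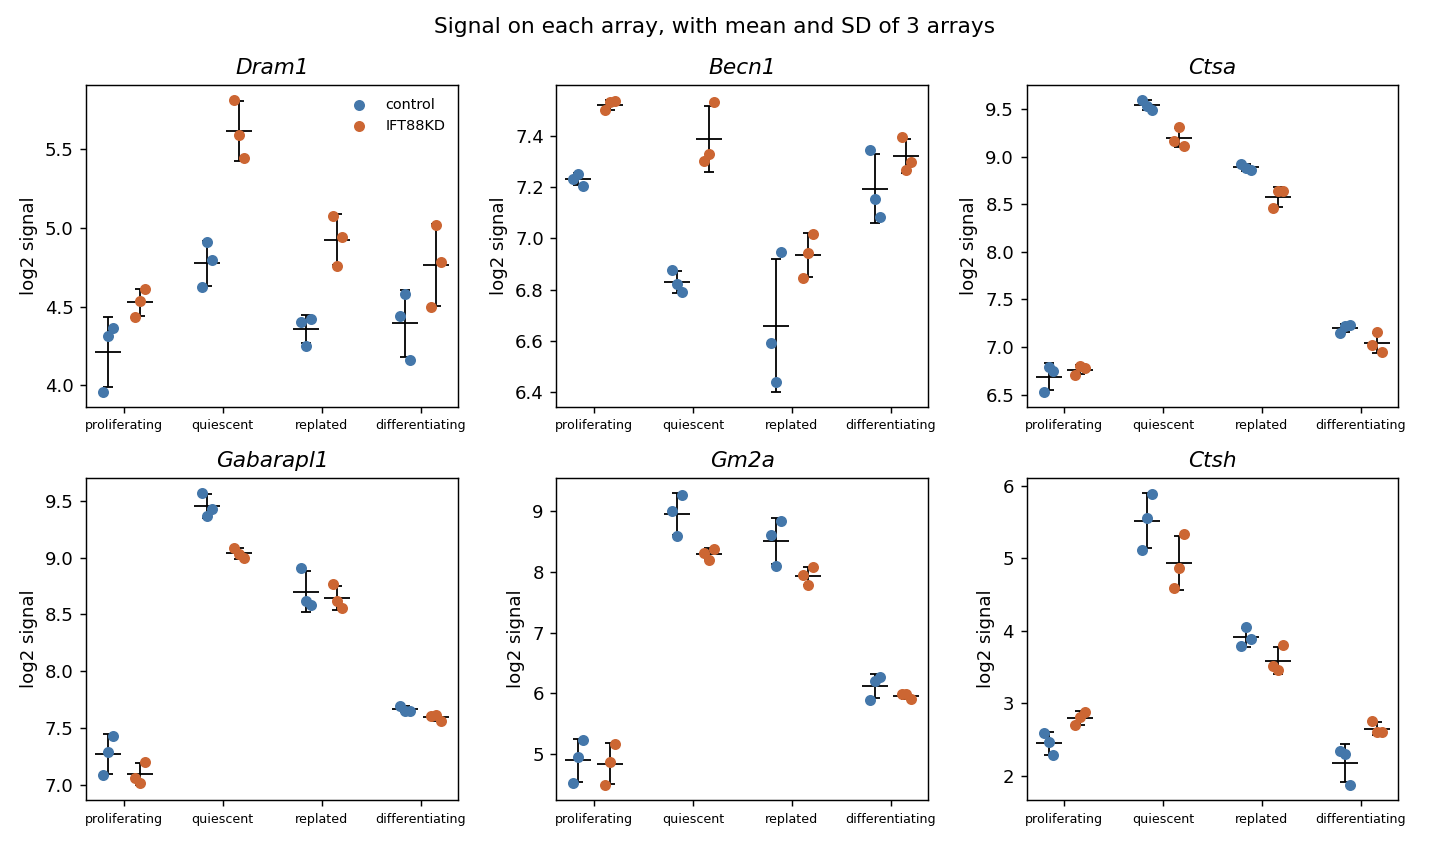
Points are the log2 signal of Dram1, Becn1, Ctsa, Gabarapl1, Gm2a and Ctsh on each array (y axis, scaled per gene) by state (x axis), with a bar for the mean and SD of 3 arrays; blue is control and orange is IFT88KD. In quiescent cells the IFT88KD points of Dram1 and Becn1 lie above the control points and those of Ctsa, Gabarapl1 and Gm2a below them, and the Ctsh points overlap.

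Some macrophage markers fell with the siRNA in the same arrays. Of the 6 tested, 3 fell: Clec10a by 1.74, Cd14 by 1.54 and Cd68, a lysosomal glycoprotein of macrophages, by 1.32. The summed level of all 17 was 8.36 to 8.39 log2 in control quiescent and 7.11 to 7.24 in IFT88KD quiescent cells. In IFT88KD quiescent cells 14 of the 17 were under the filter on all arrays. Myoblast markers had a median of 0.33 with none of 5 past the threshold, and the fibroblast marker Pi16 fell by 0.46. The 6 markers of muscle differentiation all had changes above 0 with none past the threshold, at a median of 0.65 in quiescent cells (no overlap for 4), 0.71 in replated cells (no overlap for 6) and 0.72 in proliferating cells (no overlap for none). Over all genes, every IFT88KD array was above every control array for 11.2% in quiescent, 9.48% in replated and 5.28% in proliferating cells. The part of these marker lists in the changes of the members was not tested.

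Of the non-member lists, 3 hydrolases passed in quiescent cells: Galc, galactosylceramidase, fell by 0.66 (SE 0.13, adjusted p = 0.0027), Galns fell by 0.48 (adjusted p = 0.0309) and Ctse rose by 0.81 (adjusted p = 0.0021). Of the membrane, sorting and pump genes, Cd68, also counted among the macrophage markers, passed as lower. The metal transporter gene Slc11a2 passed as higher, by 0.52 (adjusted p = 0.0147). None of the 30 other autophagy genes and none of the 17 regulators passed in limma's fit without a block, beside 5.24% of all genes. At an unadjusted p under 0.05 limma's fit had 3 and 1 of them, against 16.5% of all genes. The non-member lists were not counted with the block, under which 13.8% of all genes passed.

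After replating, Dram1 was the 1 member of 34 that passed, against 2.45% of all genes (1.52% higher). It measured 4.40, 4.25 and 4.42 log2 in control and 5.08, 4.76 and 4.94 in IFT88KD cells. Every IFT88KD array was higher, by 0.57 (SE 0.14), or 1.48-fold, with an adjusted p of 0.0360 (0.0084 with the block). This call was lost in 5 of the 6 fits that left out 1 array: 0.151 and 0.100 without IFT88KD replated replicate 1 or 3, and 0.0528, 0.150 and 0.0625 without control replated replicate 1, 2 or 3.

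The median member changed by -0.16 in replated cells, against 0.01 over all genes, and 23 of 34 lay below 0 (48.9% of all genes). All IFT88KD arrays were below the controls for 10 members and for 8.03% of all genes. With the block 9 members passed, 2 higher and 7 lower, against 11.1% of all genes (6.16% higher, 4.92% lower). The lower ones were Gm2a (-0.58), Ctsl (-0.44), Tpp1 (-0.39), Ctsd (-0.34), Ctsa (-0.31), Psap (-0.29) and Atg12 (-0.28). Gusb was higher, at 5.26, 4.57 and 3.85 in control and 5.38, 5.24 and 4.87 in IFT88KD cells. The groups overlapped, the change was 0.60 (SE 0.22, adjusted p = 0.173; 0.0088 with the block), and the other probe set of Gusb gave 0.09. Without control replated replicate 1, its highest control array, Gusb changed by 0.95 and passed (adjusted p = 0.0045), and with array weights the adjusted p was 0.0215. Becn1 passed without control replated replicate 3 (0.42, adjusted p = 0.0257).

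Galc fell by 0.76 (SE 0.13, adjusted p = 0.0014) in replated cells and Cd68 by 1.07 (adjusted p = 2.6e-04), the only non-members of the 4 lists to pass there. The summed macrophage markers lay at 7.30 to 7.45 in control and 6.44 to 6.61 in IFT88KD replated cells, and their part was again not tested.

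In proliferating cells none of the 34 members passed, against 0.348% of all genes, and 3 had an unadjusted p under 0.05 in limma's fit (6.24% of all genes). The median change was -0.02, against 0.00 over all genes. Ctsl measured 11.06, 10.92 and 10.65 log2 in control and 10.44, 10.50 and 10.29 in IFT88KD cells. Its arrays did not overlap, and the change of -0.47 (SE 0.12, 1.38-fold lower) had an adjusted p of 0.128, or 0.0031 with the block, where it was the only member called (1.94% of all genes). Without control proliferating replicate 3 the change of Ctsl was -0.58 and passed (adjusted p = 0.0461). Becn1 measured 7.23, 7.25 and 7.21 in control and 7.50, 7.53 and 7.53 in IFT88KD cells. The arrays were separate but the change of 0.29 (SE 0.11) did not pass (adjusted p = 0.494). Dram1, at 0.31 (adjusted p = 0.766), had separate arrays too and did not pass either. By percentile within the array, 4 members stood higher and 1 lower on every IFT88KD array, against 5.37% and 4.47% of all genes. Of the non-member lists, Galc passed, lower by -0.74 (SE 0.13, adjusted p = 0.0067).

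In differentiating cells none of the 34 passed, against 0.139% of all genes, with 2 at an unadjusted p under 0.05 in limma's fit (4.76% of all genes) and none with the block (1.06% of all genes). The median was -0.05, against 0.01 over all genes, 25 members lay below 0 (47.3% of all genes), and all IFT88KD arrays were below the controls for 6 (4.91%). The changes ran from -0.23 (Ctsb) to 0.48 (Ctsh). Ctsh measured 2.35, 2.30 and 1.87 in control cells, under the filter on all 3 arrays, and 2.75, 2.60 and 2.60 in IFT88KD cells.

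The siRNA effects were compared between states by their difference, and no member passed in any of the 3 such tests. The tests called 1.28% of all genes for quiescent against proliferating, 0.0580% for replated against quiescent and 0.0464% for differentiating against proliferating. At an unadjusted p under 0.05 limma's fit had 5, 1 and none of the 34, against 8.56%, 3.19% and 3.64% of all genes. Ctsh came nearest: its effect was 0.35 in proliferating and -0.58 in quiescent cells, a difference of -0.93 (SE 0.25) with an adjusted p of 0.0879. With the block the same difference had an adjusted p of 0.0046 and was the only member called, against 3.89% of all genes. In proliferating cells Ctsh was near the filter, at median percentiles of 42.1 in control and 44.6 in IFT88KD cells. Ctsa differed by -0.42 (SE 0.12, adjusted p = 0.142). The effects on Dram1 and Becn1 in quiescent cells were not shown to differ from those in proliferating cells.

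Over the 8 group means, the genes whose pattern was most like that of Dram1 were Mmp16 (Pearson r = 0.952), Gstm2 (0.943) and Ccnd2 (0.942). Those most like Becn1 were Sh3bp4 (0.959), Ebf3 (0.952) and Krt81 (0.941). These are descriptions over 8 groups, chosen from all genes tested.

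A second look at the members came from their other probe sets, of which 31, for 20 genes, were above the filter. Their change had the sign of the probe set used for 29 of 31 in control quiescent against proliferating, for 30 of 31 in replating, for 27 of 31 in differentiation and for 25 of 31 in quiescent IFT88KD against control. The comparisons between states and those between siRNAs share the control arrays, so a control array that is high or low enters both.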

How the data were processed

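Total RNA of C2C12 cells was hybridised to 24 Affymetrix mouse arrays, 3 per group. The authors deposited log2 values of 22690 probe sets, and the submitters' processing notes name the tools affy, GCOS and Affymetrix Expression Console. How the values were normalised, and whether over all states, is not given in the sources used here. Of the probe sets, 20380 had 1 gene, 691 several and 1555 none, and 64 were controls. limma 3.58.1 (R 4.3.3) fitted 1 coefficient per group to 8619 genes with a shared spread, and p-values were adjusted by Benjamini-Hochberg over all of them (two-sided, threshold 0.05). Arrays give no read depth, and their number limits precision.

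Values on every array are given for members that passed in an IFT88KD comparison, and for the 5 largest rises and falls that passed in each change of state in control cells. Of the other lists, up to 4 genes per IFT88KD comparison and 3 per direction of each change of state are named. Members or genes named outside this rule (Ulk1, Tfeb and those singled out for the block or for overlap) were chosen after their values were seen. The members and lists were chosen with earlier results of these data known.

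Same-numbered arrays of the 2 siRNAs deviated together, with correlations of 0.308 to 0.708 (proliferating), 0.256 to 0.486 (quiescent), 0.283 to 0.482 (replated) and 0.449 to 0.670 (differentiating), against at most 0.126 for other numbers, as did those of control replated and quiescent cells (0.157 to 0.426) and control differentiating and proliferating cells (0.164 to 0.280). The replicate block is therefore given beside each changed call of a member. Alternatives were the filter, quantile scaling, median centring, probe set choice, array weights, the compared groups only and leaving out each array. The scripts were tested on simulated data with unpaired arrays. There the quiescent IFT88KD comparison called 43.3% of the genes changed by 0.5 log2 and 94% of those changed by 1 log2. Python 3.11.15 with pandas 2.3.3 and matplotlib 3.10.9 read promoters and drew plots.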

Additional observations from a re-analysis of the deposited data

How the results depend on the processing

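Calls of members that moved by over 1.5 times were as follows, and the cause was not tested. For IFT88KD against control, the count of 0 in proliferating cells was 1 with the replicate block and 1 with array weights. The count of 4 in quiescent cells was 11 with the replicate block and 10 with array weights. The count of 1 in replated cells was 4 with the filter at the 60th percentile, 2 with quantile normalisation, 2 with centred arrays, 9 with the replicate block, 0 with the compared groups only and 6 with array weights. For control replated against quiescent, 28 became 16 with quantile normalisation; centring gave 21, of which 15 were higher. The difference of the effects in quiescent and proliferating cells went from 0 to 1 with the replicate block and to 1 with array weights. Leaving out 1 array gave 3 to 4 calls for IFT88KD in quiescent cells, 0 to 1 in proliferating cells, 0 to 1 after replating and 0 to 0 with differentiation. The control counts were then 32 to 32 for quiescence, 27 to 29 for replating and 17 to 22 for differentiation, and the quiescent difference of effects had 0 to 1. Over all genes, the quiescent IFT88KD count was 452, 1187 with the block and 812 with array weights. Ctsa lost its call with the compared groups only (adjusted p = 0.0776), as did Dram1 in replated cells (0.0809). Signs turned under the other scalings for 24 of 34 members in replating and 4 in differentiation. In replating, quantile normalisation put 7 members above 0, among them Atg7 (-0.14 as deposited, 0.68 with an adjusted p of 4.3e-06), and centring put 24 there. Ctsk and Ctss were too dim to test, and Ctsh was near the filter in proliferating and differentiating cells. In control quiescent against proliferating cells, where the numbers did not pair the arrays (correlations of -0.0332 to 0.0700), the block gave 33 calls in place of 32. Where they did, it changed no calls of members other than those given in the text.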
